A study of Homo sapiens with 2 samples.

Results

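Mid-length contact domains closed by a loop at their corner were described in the chromatin contact map of HEK293T cells, a transformed line of human embryonic kidney origin. A contact domain is a stretch of chromosome that contacts itself more often than the sequence on either side, and its corner is the point of the map where its start meets its end. Members were the autosomal domains over 100 kb and under 700 kb long that held no smaller listed domain and had a listed loop with anchor centres within 50 kb of the domain start and of the domain end. There were 744 such domains among the 3845 listed (19.3%). They were 26.5% of the 2812 autosomal domains that met the length and nesting conditions (95% Wilson interval 24.9 to 28.1%). The other 2068 had no corner loop and are used here for comparison. Of the 1507 listed loops, 748 closed these 744 domains.

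The series was made to map loops, domains and compartments in untreated cells, within work on the NuRD complex and CTCF. It consists of 2 in situ Hi-C libraries of a single group, replicates 1 and 2, both from HEK293T cells crosslinked with 1% formaldehyde for 10 min and digested with MboI. There was no depleted, treated or control group, and the labels do not say that the libraries came from separate cultures. Each of the 3 deposited tables describes both libraries together, so no value here has a replicate error. The members were selected on their length, nesting and loop table entries, so those values are descriptions. Domain scores and spacing come from the same contact map. Regions of 1 map are not replicates, and no difference between domains with and without a corner loop was tested. Intervals given for shares and for loop enrichment cover counting error only. Positions are hg19 coordinates counted from 1.

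In mammalian cells, loops of this size are generally attributed to cohesin, a ring-shaped complex that draws chromatin into a growing loop until it is halted at sites bound by CTCF, a zinc finger insulator protein. CTCF sites at the ends of such loops usually point towards each other. A domain with a peak of contact at its corner is commonly called a loop domain. Domains without such a peak can also form by segregation of active from inactive chromatin. NuRD is a chromatin remodelling and histone deacetylase complex. No binding of CTCF, cohesin or NuRD was measured in these tables, and no gene or sequence was placed on these coordinates.

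The share of domains with a corner loop differed little between 4 broad length classes, but it was lower at the shortest length. Domains with a corner loop had a median length of 220 kb (quartiles 155 and 345 kb), and those without had a median of 230 kb (quartiles 150 and 366.2 kb). The share with a corner loop was 26.8% among 1174 domains under 200 kb (interval 24.4 to 29.4%). It was 29.8% among 567 domains from 200 to under 300 kb (26.2 to 33.7%), 24.1% among 503 from 300 to under 400 kb (20.5 to 28.0%) and 24.5% among 568 from 400 to under 700 kb (21.1 to 28.2%). The intervals of neighbouring length classes overlapped. Among the 53 domains of 105 kb, the shortest that qualify, the share was 11.3% (5.29 to 22.6%). From 110 to under 130 kb it was 25.6% of 293 (20.9 to 30.9%). The median was shorter with a corner loop on 14 of the 21 chromosomes that had members and longer on 7. The longest members, at 695 kb each, spanned 207655001 to 208350000 of chromosome 2 and 81275001 to 81970000 of chromosome 4. The next, at 690 kb, was also on chromosome 4, from 177290001 to 177980000. Their corner loops had 77, 89 and 65 contacts, which were 2.62, 3.44 and 2.85 times the donut expectation explained below.

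Domains with a corner loop had higher domain scores than those without. The score is the domain caller's own number, ranging from 0.265 to 1.86 over the domains compared, and no source used here says what it measures. Members had a median score of 1.40 (quartiles 1.23 and 1.58), against 1.18 (1.03 and 1.36) for domains without a corner loop. The median was higher with a corner loop on all 21 chromosomes that had members. Among members, 58.1% scored above the upper quartile of the domains without a corner loop, and 18.8% scored below their median. The domains were also divided into 10 equal bands of score. In the lowest band, 13 of 282 domains had a corner loop (4.61%, interval 2.71 to 7.73%). In the highest band, 164 of 282 did (58.2%, interval 52.3 to 63.8%). The share was 22.8% in band 5 and 35.9% in band 8. The climb was not even, since band 3 held 16.4% and band 4 held 13.9%. The score difference was present in each length class, at 0.19 under 200 kb, 0.20 from 200 to under 300 kb, 0.30 from 300 to under 400 kb and 0.27 above that (medians, with minus without). Whether the contacts that make a corner loop also raise the score is unknown.

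**Figure D1:**
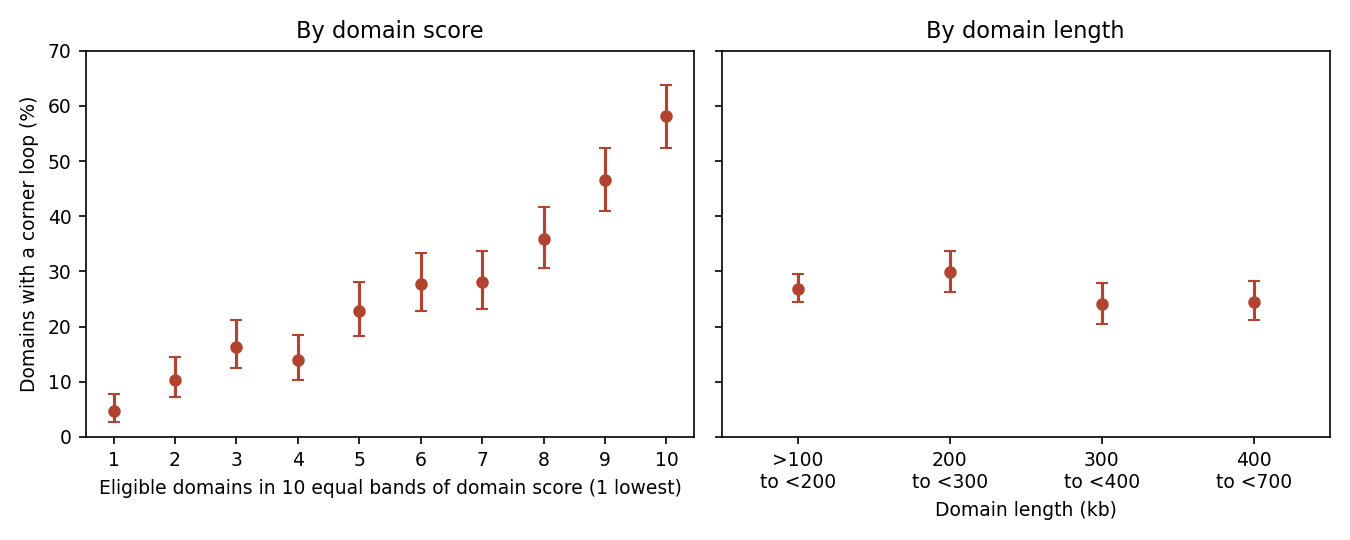
Percentage of autosomal domains over 100 kb and under 700 kb, with no smaller domain inside, that had a corner loop, by 10 equal bands of domain score (left) and by length class (right). Points are shares and bars their 95% Wilson intervals. The share is 4.61% in the lowest score band and 58.2% in the highest, while the 4 length classes lie between 24.1% and 29.8%.

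The caller's other columns also had different medians with and without a corner loop. The columns named upSign and loSign are scores of a domain's upper and lower parts by their names, both between 0 and 1. Their medians were 0.709 and 0.699 with a corner loop, against 0.611 and 0.612 without. The columns named uVarScore and lVarScore had medians of 0.0755 and 0.0767 with a corner loop, against 0.0806 and 0.0809 without. Across the 744 members these last columns went with length (Spearman rho 0.74 and 0.73). The domain score hardly did (rho 0.11), nor did loSign (rho -0.02). Points on 1 chromosome share its local contact density, so these correlations are given as descriptions.

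The 6 highest-scoring members were 190 to 365 kb long. The first was at 103350001 to 103540000 of chromosome 10, with a score of 1.86. Scores of 1.85 were given to a domain on chromosome 4 (166035001 to 166400000), to one of 245 kb on chromosome 3 (112760001 to 113005000) and to one of 200 kb on chromosome 6 (126100001 to 126300000). Scores of 1.82 were given to a domain on chromosome 2 (70535001 to 70870000) and to a second on chromosome 3 (16315001 to 16600000). Their corner loops were not the strongest of the set, at 2.29-fold to 3.27-fold over the donut with 56 to 124 contacts. The domains on chromosomes 10 and 2 each lay in the bin with the highest compartment score of its chromosome. The lowest-scoring member was a 345 kb domain of chromosome 10 (125745001 to 126090000) with 0.379. The next had 0.734 on chromosome 18 (22180001 to 22310000), 0.787 on chromosome 11 (7105001 to 7725000) and 0.804 on chromosome 6 (154465001 to 154990000). The lowest stood well below the next, yet its loop enrichment was above the median of all members. It was 3.62-fold (95% Poisson interval 2.87 to 4.52) on 79 contacts. Across members, score and loop enrichment went together weakly (Spearman rho 0.19, n = 744).

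A listed corner loop typically held between 2 and 3 times the contacts of its surroundings. Loop strength is the observed count in the loop pixel divided by the contacts expected from the ring of pixels around it, the donut. Where a domain had several corner loops, the one nearest the corner was taken. Observed counts ranged from 24 to 249, with a median of 84 (quartiles 65 and 104). These pool loops with 5 kb and 10 kb anchors. A 10 kb pixel covers more of the map, so counts at these sizes are not directly comparable. Enrichment over the donut ranged from 1.78-fold to 5.86-fold, with a median of 2.62 (quartiles 2.35 and 3). It was 4-fold or more in 32 members and under 2-fold in 7. The 455 other listed loops with anchors 100 to 700 kb apart had a median of 70 contacts and 2.73-fold enrichment. They were not limited to autosomes, the members' own loops spanned 50 to 710 kb, and the 2 sets were not matched for anchor size. Against the highest of the 4 local expectations the members' median was 2.08-fold. That highest expectation came from the horizontal or vertical stripe through the pixel in 636 members and from the lower-left square in 108. It came from the donut in 0 of 744 (interval 0 to 0.514%). In 583 members (78.4%) the highest of the 4 q-values that the authors' caller gave was under 0.01. Only loops that the caller accepted are listed, so weaker ratios and higher q-values could be missing by selection. The low end of the ratios and the share of low q-values therefore describe called loops only.

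**Figure D2:**
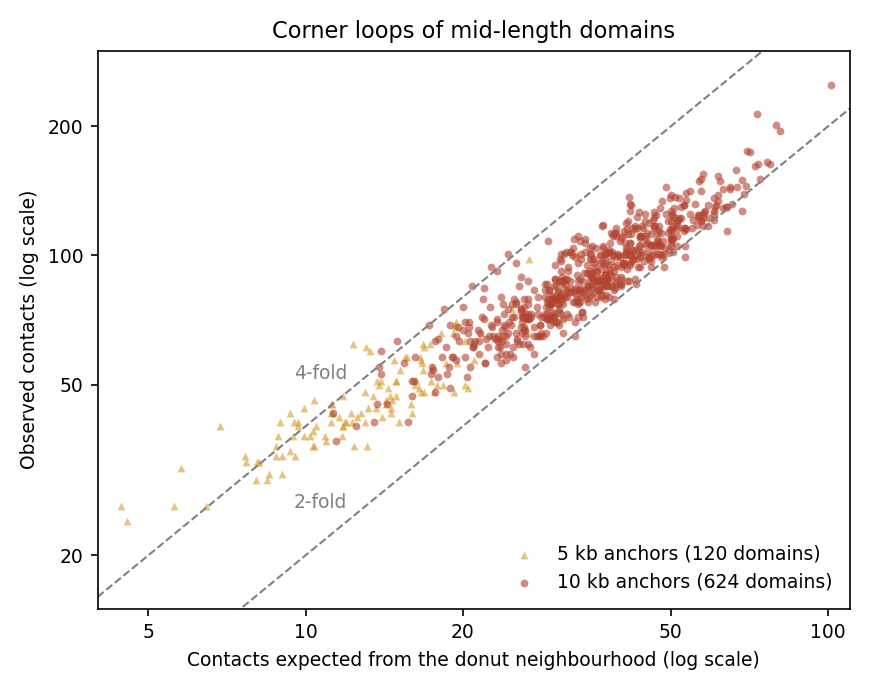
Observed contacts against contacts expected from the donut for the corner loop of each of the 744 domains, both on log scales. Triangles are the 120 domains whose loop has 5 kb anchors and circles the 624 with 10 kb anchors, and dashed lines mark 2-fold and 4-fold enrichment. Most points lie between the lines, and the highest enrichments sit at low expected counts among the 5 kb anchors.

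Longer domains had corner loops with fewer contacts and a higher ratio. The median was 93 contacts and 2.45-fold enrichment under 200 kb, 92 contacts and 2.69-fold from 200 to under 300 kb, 73 contacts and 2.72-fold from 300 to under 400 kb, and 68 contacts and 2.89-fold from 400 to under 700 kb. The quartiles of enrichment were 2.26 and 2.72 in the shortest class and 2.57 and 3.48 in the longest. The donut expectation had medians of 37.9, 34.5, 27.4 and 24.3 contacts in the same order. A lower expectation needs a higher ratio to pass a caller's threshold, and the part of this in the order was not tested. Anchor size moved with enrichment too. The 120 members with 5 kb anchors had a median of 3.49-fold on 45 contacts, and the 624 with 10 kb anchors had 2.53-fold on 88.5 contacts.

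The 6 members with the highest enrichment all had 5 kb anchors and between 24 and 62 contacts. The first, a 325 kb domain on chromosome 18 (60670001 to 60995000), had 26 contacts where 4.44 were expected, or 5.86-fold (95% Poisson interval 3.83 to 8.58). It was followed by a 520 kb domain on chromosome 2 (45205001 to 45725000) with 40 contacts and 5.84-fold (4.17 to 7.96). The third was a 455 kb domain on chromosome 2 (30940001 to 31395000) with 32 contacts and 5.55-fold (3.8 to 7.84). The fourth was a 650 kb domain on chromosome 3 (167920001 to 168570000) with 24 contacts, the fewest of all members, and 5.28-fold (3.38 to 7.85). The intervals of these first 4 overlap one another and those of the fifth and sixth below. No order among the 6 can be read. The fifth and the sixth rested on more contacts, 62 and 61, at 5.03-fold on chromosome 4 (141785001 to 142060000) and 4.68-fold on chromosome 2 (121450001 to 121830000), with intervals of 3.85 to 6.44 and 3.58 to 6.01. Anchors of these 6 loops were at most 12.5 kb from the domain ends.

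The members with the most contacts were short and had ordinary enrichment. All 6 named here had 10 kb anchors. The highest count, 249, was at a 135 kb domain of chromosome 13 (79980001 to 80115000), at 2.46-fold (2.17 to 2.79). Next were a 180 kb domain of chromosome 4 (184000001 to 184180000) with 214 contacts, a 120 kb domain of chromosome 17 (19895001 to 20015000) with 201 and a 235 kb domain of chromosome 1 (241775001 to 242010000) with 195. The last 2 of the 6 were neighbours on chromosome 10 (97000001 to 97125000 and 97450001 to 97610000), with 175 and 174 contacts. Enrichment in these 6 was 2.41-fold to 2.92-fold. Their counting intervals were narrower than those of the most enriched loops.

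Loop anchor bins that did not touch the domain end lay more often inside the domain than outside it. At the domain start, 330 anchor bins touched or contained the end (44.4%), 368 lay wholly inside the domain (49.5%) and 46 wholly outside (6.18%). At the domain end the numbers were 438 (58.9%), 233 (31.3%) and 73 (9.81%). Both bins lay wholly inside in 141 members (19%, interval 16.3 to 21.9%) and both wholly outside in 13 (1.75%, 1.02 to 2.97%). Distances depend on which point of the bin is used. From the bin centre, the median offset was 5 kb into the domain at the start and 2.5 kb into it at the end, and the means were 7.04 and 3.46 kb inward. A bin that touches the domain start or end from inside has its centre 2.5 or 5 kb inside. One that touches it from outside has its centre as far outside. The size of these offsets is therefore set in part by the bin width. From the outer edge of the bin, both medians were 0, and the mean was 2.45 kb inward at the start and 1.14 kb outward at the end. Both of these means are smaller than 1 bin. The centre-based shift at the start exceeded that at the end by 3.58 kb, less than the 5 kb bin on which domains were called, and how the caller places an end within a bin is not given.

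**Figure D3:**
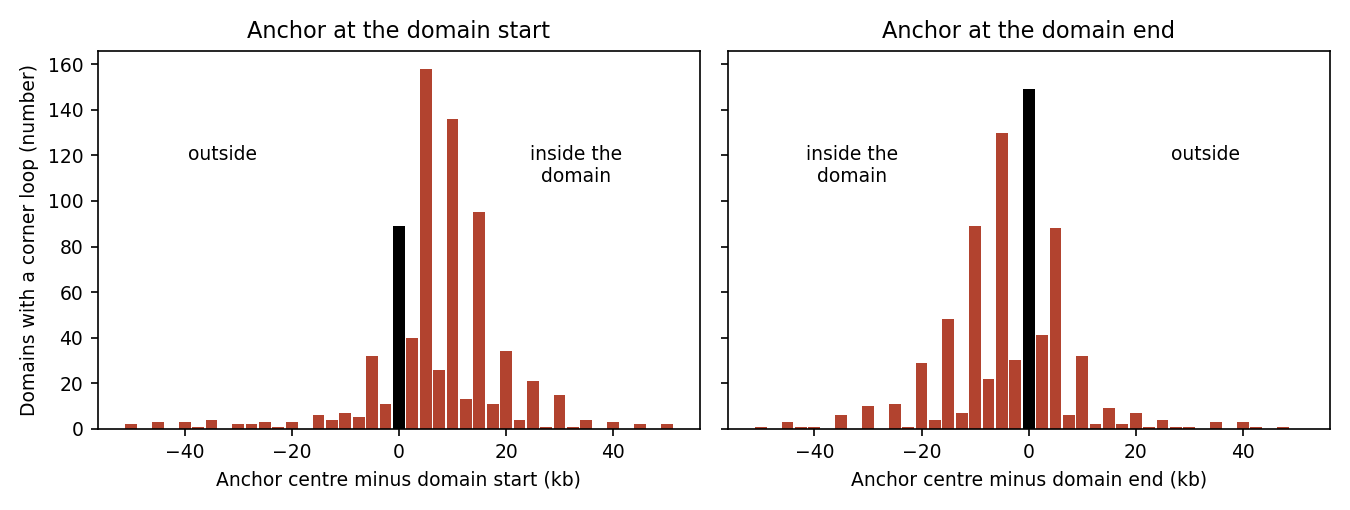
Number of the 744 domains at each distance of the loop anchor centre from the domain start (left) and the domain end (right), in kb. Black bars mark anchor centres exactly on the domain end (89 and 149 domains). More centres lie on the inner than on the outer side at both ends. A bin that touches the domain start or end from inside has its centre 2.5 or 5 kb inside, and one that touches it from outside as far outside.

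Most corner loops met the corner much more closely than the 50 kb allowed. Both anchors were within 25 kb in 672 members (90.3%), within 10 kb in 419 (56.3%) and within 5 kb in 213 (28.6%). Closeness did not go with domain score. The median score was 1.40 for the 419 with both anchors within 10 kb, 1.42 for the 253 whose farther anchor was over 10 and up to 25 kb away, and 1.38 for the 72 beyond that. Enrichment had medians of 2.69, 2.56 and 2.5 in the same order. Just inside the tolerance, 16 members had their farther anchor over 40 and up to 50 kb away, with a median score of 1.23 and 2.24-fold enrichment. Just outside it, 14 domains had a loop whose farther anchor was over 50 and up to 60 kb away, with 1.39 and 2.67-fold. Among domains of 105 kb, 6 had a corner loop and 47 did not, and among those of 100 kb, just too short, 15 did and 83 did not. At the other limit, 2 of the 5 domains of 695 kb had one, as did 0 of the 2 domains of 700 kb. In short domains a loop within the tolerance can differ much from the domain itself, and the ratio of span to length reached from 0.400 to 1.55.

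Members were spread over all autosomes but one. Chromosome 1 had 88, chromosome 6 had 75, chromosome 2 had 60 and chromosome 10 had 49. Chromosome 6 had the highest share of eligible domains with a corner loop (34.6%, interval 28.6 to 41.1%) and the highest density (0.444 members per Mb of scored bins). Chromosome 1 followed in density at 0.383 and chromosome 10 at 0.366. The lowest shares outside chromosome 22 were on chromosome 16 (8 of 52, 15.4%, interval 8.01 to 27.5%) and chromosome 19 (6 of 36, 16.7%, interval 7.87 to 31.9%). On chromosome 22 none of 32 eligible domains had a corner loop (interval 0 to 10.7%), and no loop at all was listed there. The intervals of all chromosomes except 6 and 22 include the 26.5% found over all autosomes. Over the 21 chromosomes with members, the share went with the median donut expectation of the members' loops (Spearman rho 0.44, Pearson r 0.44). That expectation ranged from 15.9 contacts on chromosome 18 to 46.3 on chromosome 10. It depends on contact depth, on loop length and on anchor size, and its part in the shares was not tested.

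By compartment score, domains with and without a corner loop were placed almost alike. The score is 1 number per 1 Mb bin. Positive and negative bins stand for 2 kinds of chromatin neighbourhood whose identity as active or inactive is not given in the files. How the sign was set on each chromosome is not given either, so it may differ between chromosomes. Midpoints lay in positive bins for 67.1% of members (interval 63.6 to 70.4%) and for 64.9% of domains without a corner loop (62.8 to 66.9%). On chromosomes 5, 11, 13, 14 and 22 a few bins carry most of the score, and on chromosome 4 its sign follows the arms. Without these 6 chromosomes the shares were 66.8% of 575 members (62.8 to 70.5%) and 65.8% of 1531 domains without a corner loop (63.4 to 68.1%). Of the 16 remaining chromosomes, the positive share was higher with a corner loop on 9 and lower on 7. Among them, the sign on chromosome 20 matched the arm in 78.7% of bins, against 96.3% on chromosome 4. The median rank of the bin within its chromosome, from 0 for the lowest score to 100 for the highest, was 64.5 with a corner loop and 66.4 without. These comparisons have no test, and the intervals treat domains as independent. Differences running opposite ways on chromosomes signed differently would be hidden by pooling.

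On the same 16 chromosomes the number of members per Mb differed more between bins than the share with a corner loop did. There were 0.0790 members per Mb in the lowest of 5 equal bands of rank, 0.191, 0.368 and 0.407 in the next 3, and 0.387 in the highest. Domains without a corner loop numbered 0.279, 0.540, 0.799, 1.06 and 1.13 per Mb in the same order. The share with a corner loop was 22.1% in the lowest band (interval 16.1 to 29.5%), 26.1% in the second, 31.5% in the middle (27.5 to 35.9%), 27.7% in the fourth and 25.5% in the highest (22.2 to 29.1%). The lowest and middle bands have intervals that overlap, as do the middle and highest. Ranks take the sign of each chromosome as deposited, so a band may mix kinds of neighbourhood.

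**Figure D4:**
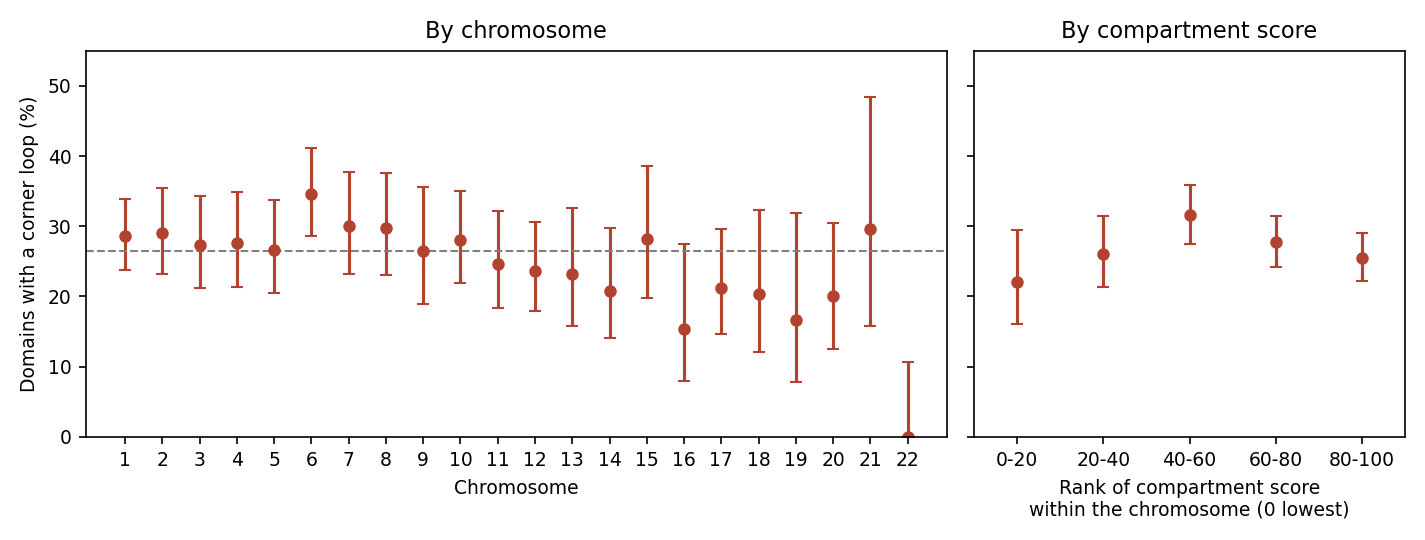
Percentage of eligible mid-length domains with a corner loop by chromosome (left; the dashed line is 26.5%, all autosomes) and by rank of the compartment score of the domain's bin within its chromosome (right; 16 chromosomes, without 4, 5, 11, 13, 14, 22 and X). Bars are 95% Wilson intervals. Chromosome 6 is highest at 34.6% and chromosome 22 at 0, and the bands of rank lie between 22.1% and 31.5%.

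Within the members, length was the measure that moved most with compartment sign, taken as deposited on each chromosome. On these 16 chromosomes, the 384 members in positive bins had a median length of 200 kb (quartiles 145 and 325 kb), and the 191 in negative bins had 240 kb (170 and 347.5 kb). Domains without a corner loop had medians of 210 and 282.5 kb in positive and negative bins. The members' domain score was 1.40 in both signs. Median loop enrichment was 2.60-fold (85 contacts) in positive bins and 2.66-fold (82 contacts) in negative bins, and the quartiles (2.35 and 2.97, against 2.35 and 2.96) almost coincided. Over all 744 members, rank and enrichment showed no relation (Spearman rho -0.03).

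Members lay closer to other domains than did domains without a corner loop. The median gap to the nearest listed domain, leaving out any that contains the member, was 25 kb with a corner loop (quartiles 15 and 75 kb) and 40 kb without (quartiles 20 and 120 kb). The gap was at most 50 kb for 68.7% of members (interval 65.3 to 71.9%), against 57.3% of the others (55.2 to 59.4%). It was over 500 kb for 16 members (2.15%), against 124 of the others (6%). The median gap was shorter with a corner loop on 17 of 21 chromosomes, equal on chromosome 17 and longer on chromosomes 12, 18 and 19, of which 18 and 19 had 12 and 6 members. On the 16 chromosomes used for compartment sign, the medians were 25 kb with a corner loop and 40 kb without, in positive and in negative bins alike. The difference was wider among longer domains, with medians of 30 and 35 kb with and without a corner loop under 200 kb, and of 25 and 50 kb from 400 to under 700 kb.

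**Figure D5:**
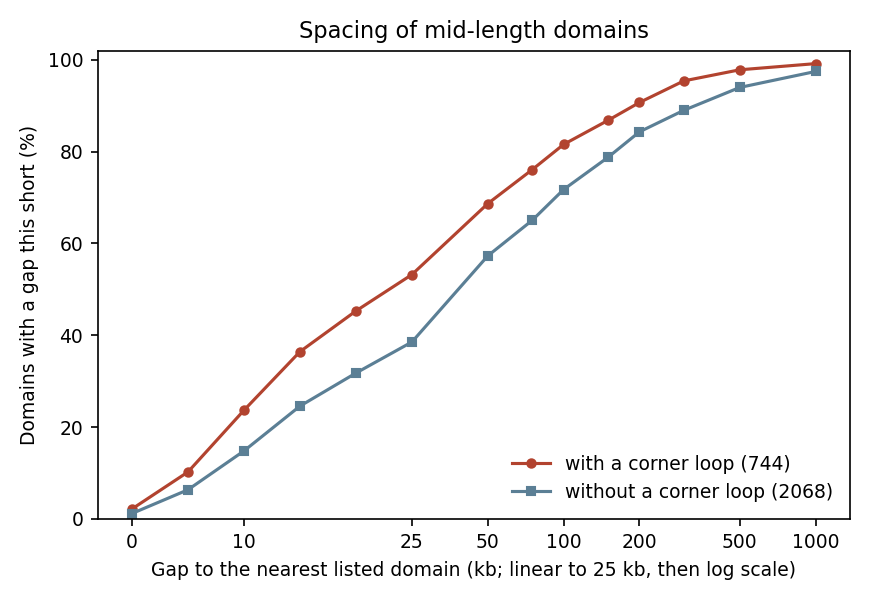
Cumulative percentage of mid-length domains whose gap to the nearest listed domain is at most the value on the horizontal axis (kb, linear to 25 kb and then on a log scale), with a corner loop (circles, 744) and without (squares, 2068). At 25 kb the curves stand at 53.2% with a corner loop and 38.5% without, and the first stays above the second up to 1000 kb.

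Shared ends were also more frequent among members, but not on every chromosome. An end within 10 kb of an end of another listed domain was found in 186 members (25%, interval 22 to 28.2%), against 358 of the others (17.3%, 15.7 to 19.0%). Unlike the gap, this measure counts the ends of enclosing domains. The share was higher with a corner loop on 18 of 21 chromosomes and lower on 1, 17 and 19. On chromosome 1, with 88 members, it was 18.2% against 26.4%. Both ends were shared in 25 members (3.36%) and in 17 of the others (0.822%). The size of these shares depends on the distance allowed. With 25 kb allowed they were 55.5% with a corner loop and 41.6% without, and with exact coincidence 1.34% and 1.06%. Anchors of other loops were also more frequent near the ends of members, counted whether or not an end was shared. An anchor of some other loop lay within 50 kb of at least 1 end in 315 members (42.3%, interval 38.8 to 45.9%), against 630 of the others (30.5%, 28.5 to 32.5%). Such anchors lay near both ends in 61 members and in 79 of the others, so those 79 domains had loops at each end but none joining them. Another loop lay wholly inside 2.82% of members and 2.37% of the others, and a loop of up to 2 Mb spanned 1.34% and 1.50%. A neighbouring member's own corner loop can supply the anchor near a shared end.

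Midpoints of successive members on a chromosome were a median of 1777.5 kb apart (quartiles 561.2 and 4367.5 kb). Those of domains without a corner loop were 678.8 kb apart, but they are also more numerous. Directly adjoining members, with ends within 10 kb, formed 28 pairs and 2 runs of 3, which held 62 members (8.33%). The run on chromosome 6 spanned 138010001 to 138730000, with domains of 300, 105 and 295 kb whose loops had 99, 46 and 77 contacts. The loop with 46 contacts had 5 kb anchors and the others had 10 kb anchors. Their enrichments were 2.18-fold, 3.23-fold and 2.61-fold in the same order. The run on chromosome 7 spanned 31015001 to 32230000, with domains of 145, 610 and 445 kb. Their loops, all with 10 kb anchors, had 116, 65 and 92 contacts.

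Adjoining members rarely used the same anchor bin. At the 32 junctions within these runs, the anchor closing the first domain and the anchor opening the next fell in overlapping bins in 3. Their centres were a median of 10 kb apart, with a range of 0 to 57.5 kb, and were within 10 kb of each other in 17. The domain ends at these junctions were themselves 5 or 10 kb apart, so anchors in adjacent bins can lie at the same junction. In 30 junctions the second anchor lay downstream of the first, and in no junction had they crossed. In 2 of the 30 runs a further loop joined the outer ends. On chromosome 5 the domains 58485001 to 58670000 and 58680001 to 59095000 had corner loops of 101 and 96 contacts at 2.87-fold and 3.80-fold. The outer loop there had 56 contacts at 3.26-fold. On chromosome 7 the domains 25440001 to 25600000 and 25610001 to 25890000 had 39 and 98 contacts at 3.78-fold and 2.77-fold, and the outer loop 52 at 3.56-fold.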

How the data were processed

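In situ Hi-C was measured in 2 HEK293T libraries, and each deposited table covers both together. The tools named by the submitters' processing notes are BWA 0.7.8, FastQC 0.11.7 and Picard, and the build is hg19. No source used here gives their roles or the domain caller. Per the deposited file's name and the file headers, loops were called with HiCCUPS at 5 and 10 kb, and the table holds observed contact counts, the contacts expected from 4 neighbourhoods and q-values. The authors' domain score and compartment score were used as deposited. Sequencing depth per library is unknown, and contacts per loop are the only measure of it.

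Members were found with Python 3.11.15, pandas 2.3.3 and numpy 2.4.6 and intervals computed with scipy 1.17.1. The finder was tested on simulated domains and loops. A domain took the compartment score of its midpoint's bin. The members, length classes and comparisons were chosen with earlier results of these data known. Named regions are the 6 with the highest enrichment (at least 20 contacts), the 6 with the most contacts, the 6 highest and 4 lowest scores, the 3 longest, the runs of adjoining members, members with several corner loops and those at the limits of the rule. Alternatives changed the corner tolerance, the eligible domains, the loop taken, its expectation, the chromosomes and the definition of a neighbour. The gene and promoter tables at hand are of another build than hg19 and were not used here.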

Additional observations from a re-analysis of the deposited data

How the results depend on the processing

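Of 128 alternative values, 109 stayed within the 95% interval of the main value (for the number of members, within 1.5 times). Almost all of these values cannot be negative, so the absence of a change of sign carries no information for them. Gaps and shared ends among these values were those of members only. Their difference from domains without a corner loop was therefore not put through these alternatives. With a corner tolerance of 25 kb the share of eligible domains with a corner loop was 23.9% and the spacing between members 2022.5 kb. With 10 kb there were 419 members, a share of 14.9%, a median score of 1.21 for domains without a corner loop, 2.69-fold enrichment, a gap of 20 kb and a spacing of 3401.2 kb. Fewer domains qualify at these tolerances by construction, which sets the count, share and spacing. With 10 kb, members whose farther anchor is over 10 kb away also join the domains without a corner loop. Those members had median scores of 1.42 (253 over 10 and up to 25 kb) and 1.38 (72 beyond that). The domains they join had 1.18. The enrichment and gap given for 10 kb are those of the 419 that remain, and why they differ was not tested. The median anchor offset at the domain end was 0 kb with the 10 kb tolerance. Keeping domains that hold a smaller one gave a spacing of 1526.2 kb. Enrichment was 2.08-fold over the highest expectation, and with 10 kb anchors alone it was 2.53-fold on 88.5 contacts. In place of the domain score, uVarScore, lVarScore, upSign and loSign have medians of 0.0755, 0.0767, 0.709 and 0.699 on scales of their own. With eligible neighbours alone the gap was 35 kb. Shared ends were 1.34% at a tolerance of 0 kb and 55.5% at 25 kb. Using the merged centroid of a loop, or leaving out chromosome 22, was chosen after seeing the data, as were the alternatives for anchor offsets. No paired analysis was possible because the tables hold no column for either library, which also means that neither could be left out. Enrichments on few contacts have wide counting intervals, and a domain without a corner loop is one with none listed at this depth.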

Other observations

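In 46 members the domain lay inside a larger listed domain. The smallest such enclosing domain had a median length of 295 kb. In 25 of the 46 cases it also had a listed loop within 50 kb of its corner, which could be the same loop as the member's. An enclosing domain shared by members was counted for each. The inner domain had the higher domain score in 23 of 46. Median scores were 1.29 for these members and 1.28 for the enclosing domains.

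Few members had more than 1 corner loop. There were 6, on chromosomes 1 (8045001 to 8380000), 6 (11140001 to 11500000 and 37000001 to 37145000), 9 (100210001 to 100385000), 11 (30355001 to 30945000) and 17 (66250001 to 66450000). All 12 loops had 10 kb anchors. On chromosome 1 and at the first domain of chromosome 6, the loops shared the anchor at the domain end and differed at the start by 30 kb. The loops of the chromosome 1 domain had 90 and 108 contacts at 2.40-fold and 2.34-fold, and those of the chromosome 6 domain had 117 and 125 contacts at 2.74-fold and 2.54-fold. The counting intervals of each pair overlap. Conversely, 2 loops each closed a pair of overlapping members. One lay on chromosome 2, with domains 224845001 to 225120000 and 224905001 to 225135000 and 83 contacts. The other lay on chromosome 5, with domains 114640001 to 114875000 and 114650001 to 114925000 and 82 contacts.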
